A study of Mus musculus with 6 samples.

Results

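The genes described here encode the subunits of the mitochondrial respiratory chain and of ATP synthase, with their tissue isoforms and a few associated factors. They were taken from the count table by symbol, as every row beginning with mt-, with Uqcr, Atp5 or Cox followed by a digit from 4 to 8, with Nduf followed by a, b, c, s or v and a digit, or equal to Sdha, Sdhb, Sdhc or Sdhd. This gave 98 of 26100 rows. Of these, 13 were the protein-coding genes of the mitochondrial genome and 85 were nuclear. No mitochondrial ribosomal or transfer RNA row was among them. The nuclear rows comprised 35 for complex I, 4 for complex II, 8 for complex III, 20 for complex IV and 18 for complex V, which is ATP synthase. Ndufa4, named for complex I, was counted with complex IV, where its protein is now placed. Among the nuclear rows, 10 were set apart as tissue isoforms or associated factors (Cox4i2, Cox6a2, Cox6b2, Cox7a1, Cox7a2l, Cox7b2, Cox8b, Cox8c, Ndufa4l2 and Atp5s), which left 75 rows. These are called core nuclear subunits in the counts, medians and ratios below, with accessory subunits such as Ndufa10 and Ndufv3 included.

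Lungs of 6 mice were profiled by RNA sequencing, 3 of them wild type (WT) and 3 with a knockout of Clec7a (KO), which encodes the myeloid beta-glucan receptor dectin-1. All 6 mice had received bleomycin into the trachea, a drug that injures the lung and is followed by fibrosis, and lungs were taken 14 days later. The labels give no strain, sex, age or knockout allele, and both groups were injured, so nothing here compares injured with healthy lung. Whole lung mixes many cell types, and fewer cells of a type and less RNA per cell cannot be told apart in such samples.

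The respiratory chain moves electrons from NADH (through complex I) and succinate (through complex II) to ubiquinone, complex III, cytochrome c and finally oxygen at complex IV. Complexes I, III and IV pump protons across the inner mitochondrial membrane, and ATP synthase uses the return of these protons to make ATP. The mitochondrial genome encodes the hydrophobic core of complexes I, III, IV and V as long precursor transcripts that are cut into single messages, while complex II is wholly nuclear. All other subunits are made in the cytosol and imported, so each complex except complex II draws on both genomes. In lung, alveolar type 2 cells, ciliated cells and macrophages are known as cells rich in mitochondria.

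The promoters of nuclear members are known for binding sites of the factors NRF1, GABPA and YY1, and the sequences that follow show such letters in members of every complex. RefSeq promoters (GRCm38.p6, 250 bases before to 50 bases after the start) were found for 66 of the 84 nuclear symbols. The letters GCGCNTGCG (NRF1, all but the last of its consensus) were searched on both strands, as were the others. They stood in 23 of the 66 promoters (34.8%), against 13.5% of 11774 tested genes with a promoter and 7.12% of all 27025 genes with one. AAGATGGC (YY1) stood in 9 members (13.6%), against 4.61% of the tested genes and 3.19% of all genes. CCGGAAGT (GABPA) stood in 5 members (7.58%), against 7.95% of the tested genes and 4.31% of all genes. Its shorter form CCGGAAG, which every CCGGAAGT contains, stood in 16 members (24.2%), against 17.8% and 9.93%. The windows below are 60 bases long, lie before both the RefSeq start and the GENCODE M21 gene, and carry the matched letters in capitals. A match is a description of the letters and not a measured binding site.
Ndufa11 (complex I), chr17:56717676-56717735, + strand: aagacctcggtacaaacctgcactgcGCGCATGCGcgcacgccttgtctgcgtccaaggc
Ndufs5 (complex I), chr4:123718250-123718309, - strand: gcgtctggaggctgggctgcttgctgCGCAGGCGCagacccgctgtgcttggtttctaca
Sdha (complex II), chr13:74350304-74350363, - strand: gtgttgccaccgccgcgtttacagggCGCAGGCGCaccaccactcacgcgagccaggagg
Sdhd (complex II), chr9:50603894-50603953, - strand: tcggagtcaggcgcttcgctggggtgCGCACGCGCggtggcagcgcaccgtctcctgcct
Cox6a1 (complex IV), chr5:115349087-115349146, - strand: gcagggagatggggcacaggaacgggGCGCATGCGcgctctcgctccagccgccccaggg
Atp5h (complex V), chr11:115420026-115420085, - strand: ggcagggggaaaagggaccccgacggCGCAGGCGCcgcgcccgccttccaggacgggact
The first 6 windows carry the NRF1 letters, on either strand.
Uqcr11 (complex III), chr10:80406854-80406913, - strand: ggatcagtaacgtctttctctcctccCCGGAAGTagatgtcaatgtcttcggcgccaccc
The Uqcr11 window carries the GABPA letters.

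The libraries held 31052936 to 34451956 counts. Clec7a was read at 60.6, 84.0 and 197 CPM (counts scaled to library size with TMM factors) in WT replicates 1, 2 and 3 and at 3.60, 6.85 and 2.84 CPM in KO replicates 1, 2 and 3. Markers of alveolar type 1 and type 2 cells and of lung endothelium were all present. In both genotypes the replicate 1 library differed from replicates 2 and 3 in its cell type markers. The summed fibroblast markers were 4701 CPM in WT replicate 1 against 17014 and 19413 in the other WT libraries, and 2189 CPM in KO replicate 1 against 12965 and 6990. Most of these sums were the collagens Col1a1, Col1a2 and Col3a1. Pdgfra was also lower in replicate 1, at 222 CPM against 476 and 398 in WT and 114 against 429 and 442 in KO. Dcn was higher there in WT, at 449 CPM against 192 and 236, and at 166 against 206 and 190 in KO. Tcf21 and Lum were at most 43.0 and 56.6 CPM. The summed type 2 alveolar markers ran opposite to the fibroblast sums, at 10696 CPM against 2970 and 2023 in WT and 20383 CPM against 3663 and 10413 in KO. Red cell genes were at 4694 CPM against 549 and 1299 in WT and 8019 CPM against 1252 and 1659.8 in KO, and endothelial markers at 1056 CPM against 3471 and 3205 in WT and 1657 CPM against 3533 and 3588 in KO. Airway markers were high in WT replicate 1 but not in KO replicate 1. Ciliated cell markers summed to 450.1, 119.9 and 79.3 CPM in WT and 203, 196 and 371 CPM in KO, and secretory markers to 12667, 1039 and 375 CPM in WT and 2936, 2048 and 5085 CPM in KO. Macrophage markers summed to 19978 CPM in KO replicate 1 and to 4669 to 7520 CPM in the other 5 libraries, but 18786 of the 19978 CPM were Lyz2, which type 2 cells also express. The other 7 macrophage markers summed to 1192 CPM in KO replicate 1, within the range of the other libraries (712 to 1576 CPM). The part of these cell types in the results below was not tested, and results are given with and without the replicate 1 libraries where these decide them.

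No member passed the test between KO and WT. The edgeR quasi-likelihood test covered 94 members, all 13 mitochondrial and 81 nuclear, and left out Cox7b2, Cox8b, Cox8c and a second Atp5o row for low counts. Of these, 0 had a Benjamini-Hochberg adjusted p under 0.05 (percent called over all 16633 tested genes: 0% higher and 0% lower in KO), and 0 had an unadjusted p under 0.05, against 11.8% of all tested genes. DESeq2 called 0 members at an adjusted p under 0.05 (over all genes 1.91% higher and 1.73% lower in KO). It put 2 members, mt-Nd2 and Cox6b2, at an unadjusted p under 0.05, against 11.4% of all genes. limma-voom also called 0 members and 0 of all genes, and put 1 member, Cox6b2, at an unadjusted p under 0.05, against 12.6% of all genes. Without both replicate 1 libraries, edgeR called 0 members (0.275% of all genes) and put 19 of 94 at an unadjusted p under 0.05 (30.0% of all genes). Those 19 were 4 mitochondrial and 15 nuclear members. In each count at an unadjusted p, the members' share was below that of all genes.

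The mitochondrially encoded genes took a larger part of the library in KO on average, but not when KO replicate 1 was left out. Their share of all counts was 3.87%, 2.75% and 2.69% in WT replicates 1 to 3 and 7.34%, 3.48% and 2.71% in KO replicates 1 to 3. The KO mean was 4.51% ± 2.48 (SD, n = 3) and the WT mean 3.10% ± 0.663 (SD, n = 3), and the groups overlapped. KO replicate 1 was far above all others, and KO replicate 3 lay within the WT range. Without KO replicate 1 the difference between the means, 1.41 percentage points, became -0.00895, and without both replicate 1 libraries it was 0.374. On the FPKM scale, which is per length, mitochondrial genes made up 6.71% to 7.64% of the summed FPKM in WT and 6.54% to 14.2% in KO.

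The nuclear members took a far smaller part, and both replicate 1 libraries were high. Their share of counts was 0.877%, 0.485% and 0.465% in WT and 0.721%, 0.435% and 0.464% in KO. The means, 0.609% ± 0.232 in WT and 0.540% ± 0.157 in KO (SD, n = 3), differed by less than either spread. Replicates 2 and 3 of both genotypes lay between 0.435% and 0.485%.

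The ratio of mitochondrial to nuclear counts within a library, which no scaling between libraries touches, was 4.41, 5.67 and 5.79 in WT and 10.2, 8.003 and 5.83 in KO. Every KO library was above every WT library, but KO replicate 3 exceeded the highest WT library by less than the WT libraries differed among themselves. On the log2 scale the KO mean was 0.57 above the WT mean. That difference was between 0.38 and 0.78 with any 1 library left out, and 0.25 without both replicate 1 libraries. The ratio was not tested. On the CPM scale, 9.81% of all tested genes had every KO library above every WT library.

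**Figure D1:**
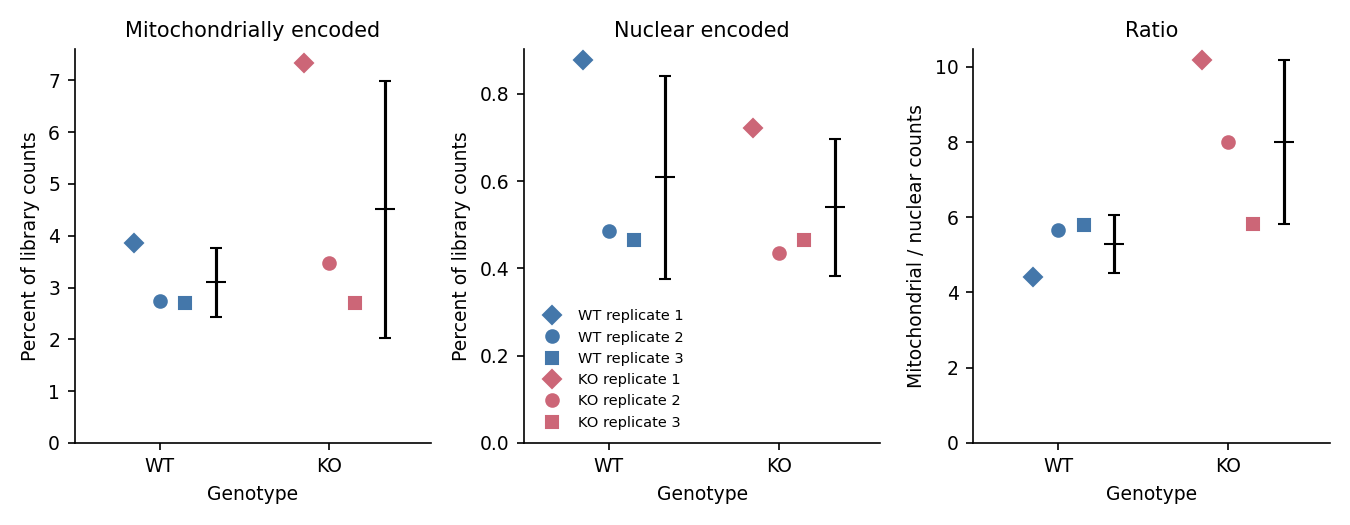
Share of all counts on the 13 mitochondrial and 85 nuclear rows (percent, left and middle) and the ratio of their counts (right), by genotype; each symbol is 1 library, and the bar gives mean and SD of 3 libraries. KO replicate 1 stands at 7.34% for mitochondrial genes, and both replicate 1 libraries stand above all others for nuclear genes.

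By complex, the counts of the 2 genomes stood in different ratios. Complex IV had the largest ratio of mitochondrial to core nuclear counts, at 11.1, 22.0 and 22.3 in WT and 28.4, 28.7 and 19.3 in KO. The WT replicate 1 library was the lowest, and KO replicate 3 lay within the WT range. Complex I gave 5.12, 6.37 and 6.25 in WT and 12.4, 9.86 and 7.35 in KO, with no overlap. For complex III, whose only mitochondrial gene is mt-Cytb, the ratio was 5.14, 7.18 and 7.63 in WT and 12.1, 10.8 and 8.15 in KO, again without overlap. These separations were not tested, and 9.81% of all tested genes had every KO library above every WT library on the CPM scale. Complex V was nearest to parity, at 1.43, 1.47 and 1.39 in WT and 2.83, 1.81 and 1.24 in KO. There the WT libraries were close together while the KO libraries fell on both sides of them. These ratios are of counts, which depend on gene length, so they compare libraries and not the abundance of the complexes' subunits.

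**Figure D2:**
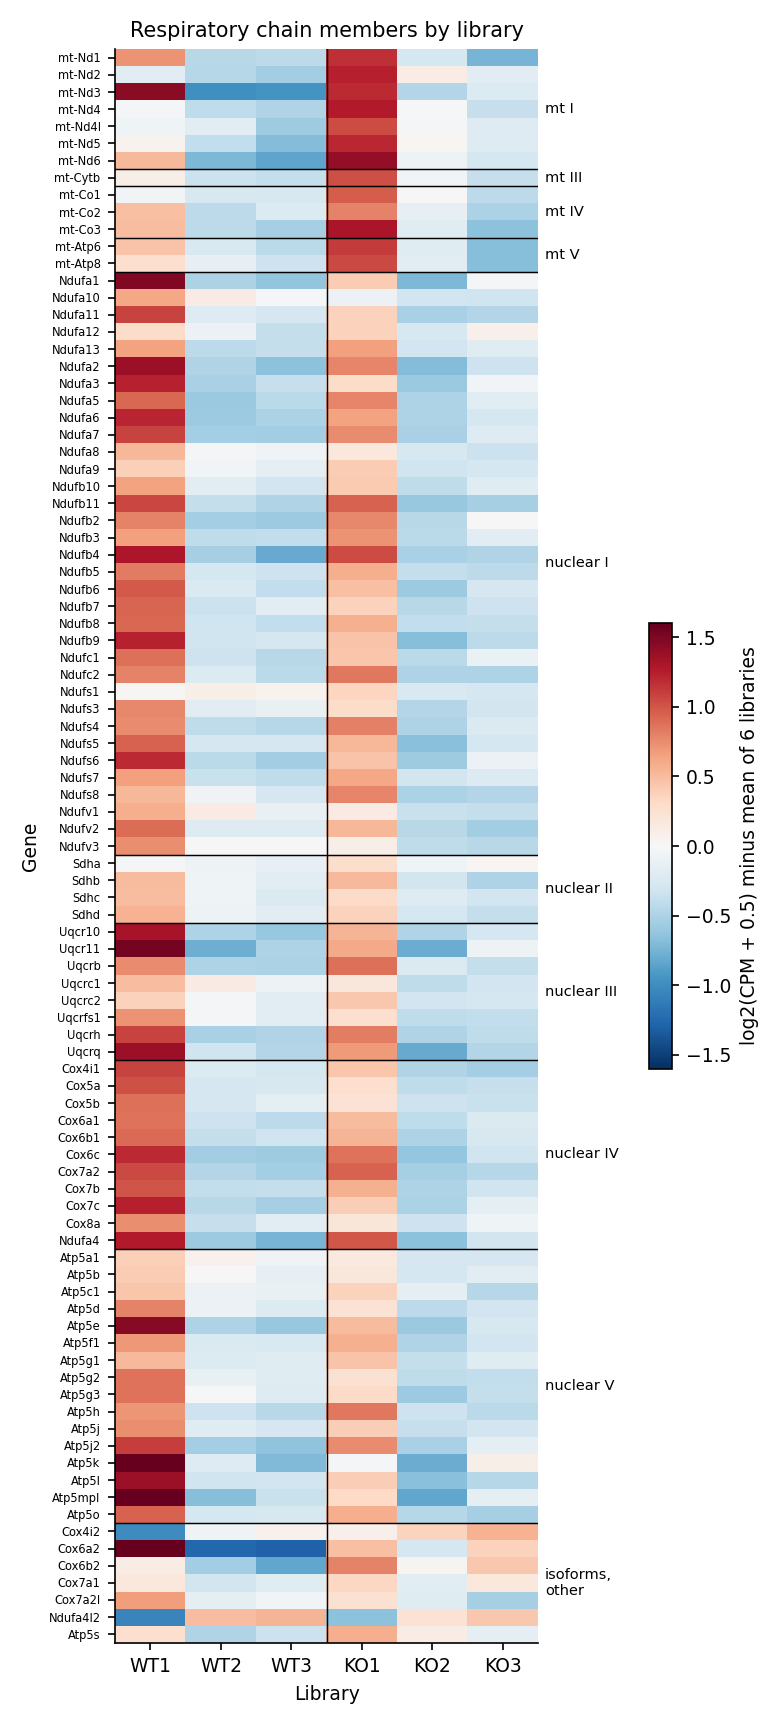
log2(CPM + 0.5) of 93 tested members in the 6 libraries (columns), minus the gene's mean over the 6, with mitochondrial genes first, then core nuclear subunits by complex, then isoforms and associated factors. KO replicate 1 is highest for 12 of 13 mitochondrial genes, and WT replicate 1 is highest for 61 and KO replicate 1 for 13 of the 74 core nuclear subunits tested.

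All 13 mitochondrial genes had a fitted log2 fold change above 0 (KO minus WT), between 0.04 and 0.92, with a median of 0.49 where the median of all tested genes was -0.01. None passed the test. These genes come from shared precursor transcripts and are not independent of each other. Without KO replicate 1 the median was -0.01, and without both replicate 1 libraries it was 0.17, with 10 of 13 above 0. KO replicate 1 was the highest library for 12 of the 13, and WT replicate 1 for mt-Nd3.

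Among the 7 complex I genes of the mitochondrial genome, mt-Nd2 (chrM:3914-4951, + strand), a core membrane subunit, had the smallest p. It was read at 1263, 1038 and 965 CPM in WT and 3378, 1539 and 1259 CPM in KO. Only KO replicate 3, just under WT replicate 1, kept the groups from separating. The log2 fold change was 0.92 ± 0.43 (SE), with an edgeR adjusted p of 0.464. mt-Nd5 (chrM:11742-13565, + strand) and mt-Nd4 (chrM:10167-11544, + strand), 2 further membrane subunits of the proton-pumping arm, gave 0.80 ± 0.46 and 0.77 ± 0.49 (SE), with edgeR adjusted p-values of 0.547 and 0.590. mt-Nd6, the one protein-coding gene on the other strand (chrM:13552-14070), gave 0.77 ± 0.59, and mt-Nd4l 0.63 ± 0.38. mt-Nd1 and mt-Nd3 were nearer to 0, at 0.23 ± 0.61 and 0.04 ± 0.79. mt-Nd3 varied most, from 47.1 CPM in WT replicate 2 to 254 CPM in WT replicate 1.

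Of the other mitochondrial genes, mt-Co1 (chrM:5328-6872, + strand), the catalytic subunit of complex IV, was the most abundant per length, at 7111 ± 336 FPKM in WT and 10350.5 ± 5078 in KO (SD, n = 3). It was read at 12930, 11093 and 11105 CPM in WT and 25883, 13393 and 9924 CPM in KO. KO replicate 3 was the lowest of all 6 libraries and KO replicate 1 the highest, so the groups overlapped. mt-Cytb, the cytochrome b of complex III, gave a log2 fold change of 0.53 ± 0.45. mt-Co2 and mt-Co3, which complete the core of complex IV, gave 0.16 ± 0.44 and 0.48 ± 0.59. mt-Atp6 and mt-Atp8, membrane subunits of ATP synthase, gave 0.31 ± 0.54 and 0.30 ± 0.48.

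Within the mitochondrial counts, mt-Co1 took 32.4% to 41.0% in the 6 libraries and mt-Nd3 0.168% to 0.638%. A few complex I genes took a larger part in KO. mt-Nd2 made up 3.17%, 3.71% and 3.56% of mitochondrial counts in WT and 4.53%, 4.53% and 4.86% in KO. mt-Nd4 made up 8.08%, 8.79% and 8.59% in WT and 10.5%, 9.56% and 9.70% in KO, and mt-Nd5 5.48%, 5.73% and 4.83% against 6.55%, 6.32% and 7.07%. In all 3 genes every KO library was above every WT library, replicate 1 libraries included. mt-Atp8 went the other way, at 1.95%, 2.12% and 1.90% in WT and 1.81%, 1.68% and 1.55% in KO. The other 9 genes overlapped between groups. An exact permutation test of 3 against 3 libraries, 2-sided, gave p = 0.1 for each of the 4 genes, the smallest it can give, and 13 such shares were compared, so none is significant. For orientation, over all tested genes and on the CPM scale, 9.81% had every KO library above every WT library and 11.3% every KO library below. Shares sum to a fixed total, so a rise in one lowers others. Neighbouring genes overlap by 43 bases (mt-Atp8 and mt-Atp6), 14 bases (mt-Nd5 and mt-Nd6, on opposite strands), 7 bases (mt-Nd4l and mt-Nd4) and 1 base (mt-Atp6 and mt-Co3). How reads there were assigned is not given in the sources used here.

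**Figure D3:**
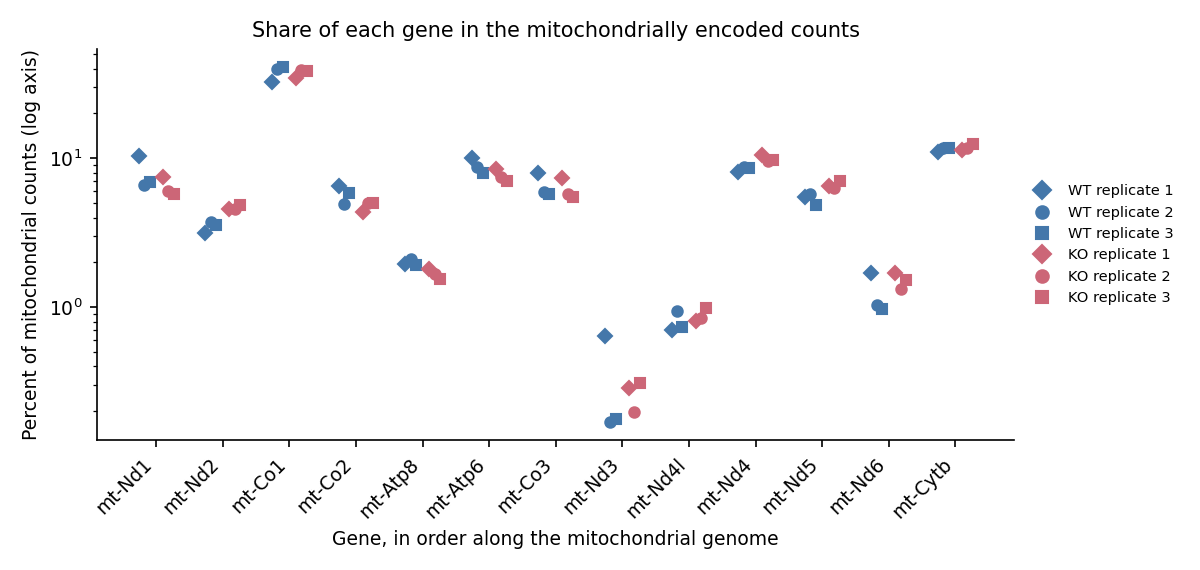
Percent of mitochondrial counts taken by each of the 13 genes (log axis), in their order along the mitochondrial genome, with 1 symbol per library. The KO libraries lie above all WT libraries for mt-Nd2, mt-Nd4 and mt-Nd5 and below them for mt-Atp8.

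The nuclear members leaned the other way from the mitochondrial genes in the average over 6 libraries. Of 81 tested, 67 had a log2 fold change below 0 and 14 above, with a median of -0.20. On log2(FPKM + 1) the median was -0.09, with 57 below and 25 above, and by limma-voom it was -0.15, with 61 below and 20 above. The median moved with the replicate 1 libraries: without WT replicate 1 it was 0.29. Without KO replicate 1 it was -0.60, and without both it was -0.07, with 45 below 0 and 36 above. Complex by complex, the medians of the core subunits were -0.20 for complex I (28 of 35 below 0), -0.14 for complex II (3 of 4), -0.36 for complex III (7 of 8), -0.20 for complex IV (11 of 11) and -0.28 for complex V (15 of 16). Without both replicate 1 libraries these medians were -0.09 for complex I (20 of 35 below 0) and -0.15 for complex II (3 of 4). Complexes III, IV and V then gave -0.06 (4 of 8), 0.016 (5 of 11) and -0.15 (11 of 16). Only 1 nuclear member, Cox4i2, had every KO library above every WT library, and 1, Ndufa10, had every KO library below. The shares of all tested genes were 9.81% and 11.3%.

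In complex I, Ndufa10 (chr1:92439010-92473860, - strand), an accessory subunit of the membrane arm, came closest to the threshold. It was read at 93.9, 66.5 and 59.9 CPM in WT and 56.8, 49.0 and 48.5 CPM in KO. The highest KO library was below the lowest WT library by a small margin. Its log2 fold change was -0.51 ± 0.22 (SE), with an edgeR adjusted p of 0.427, and -0.37 without both replicate 1 libraries. Ndufv3, an accessory subunit of the NADH-oxidising module, followed at 48.2, 28.7 and 28.7 CPM in WT and 30.5, 21.5 and 21.0 CPM in KO, where KO replicate 1 lay within the WT range. Between genotypes it gave -0.53 ± 0.28 (edgeR adjusted p = 0.517). Ndufv2, an iron-sulphur subunit among the most abundant of complex I by CPM, gave -0.33 ± 0.43.

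By the summed counts of the core nuclear subunits, complex II differed least between libraries, from 0.0375% to 0.0531% of all counts. Sdha (chr13:74322254-74350280, - strand), the flavoprotein that oxidises succinate, was read at 179, 173 and 168 CPM in WT and 222, 174 and 188 CPM in KO. The 6 values spanned a narrow range, and 1 KO library lay inside that of WT. KO against WT gave 0.17 ± 0.18 on the log2 scale (edgeR adjusted p = 0.755). Sdhd, a membrane anchor of the same complex, gave -0.20 ± 0.30, and the remaining subunits Sdhb and Sdhc -0.14 ± 0.33 and -0.15 ± 0.27. All of these varied more between libraries than Sdha. Sdhb was read at 117, 78.1 and 72.3 CPM in WT and 118, 66.9 and 58.1 CPM in KO.

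In complex III, Uqcrc1, a core subunit, was read at 185, 143 and 124 CPM in WT and 149, 98.8 and 106 CPM in KO. Replicate 1 was the highest in each genotype, and the groups overlapped through KO replicate 1. The fitted log2 fold change was -0.36 ± 0.24 (edgeR adjusted p = 0.614). The other core subunit, Uqcrc2, gave -0.08 ± 0.28, and Uqcrfs1, the Rieske iron-sulphur protein, -0.38 ± 0.32.

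In complex V, Atp5b and Atp5a1, the catalytic beta and the alpha subunit of the F1 head, were the most abundant nuclear members by CPM. Atp5b was read at 827, 629 and 573 CPM in WT and 710, 516 and 553 CPM in KO, and its log2 fold change was -0.19 ± 0.25 (edgeR adjusted p = 0.824). Atp5a1 was read at 684, 549 and 504 CPM in WT and 584, 437 and 435 CPM in KO, a log2 fold change of -0.25 ± 0.24. Atp5k, a small membrane subunit, had the lowest fold change of the members, -0.90 ± 0.73, from 11.7 CPM in WT replicate 1 against 1.93 to 2.92 in the other WT libraries and 1.79 to 3.73 in KO. Without both replicate 1 libraries that value was 0.20, so its direction came from WT replicate 1.

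The spread within genotypes had a common form across nuclear members. In WT, 78 of 81 were higher in replicate 1 than in both replicates 2 and 3, and in KO also 78 of 81. Of all tested genes, 44.2% were so in WT and 40.5% in KO. The median excess of replicate 1 over the mean of replicates 2 and 3 was 1.12 in WT and 0.79 in KO (log2). WT replicate 1 was the highest of the 6 libraries for 63 of the 81. The complex III subunit Uqcr11 was read at 44.8 CPM in WT replicate 1 and 23.4 in KO replicate 1, against 8.57 to 14.3 in the other 4 libraries. Ndufs1, the largest iron-sulphur subunit of complex I, was an exception in WT, at 72.6, 76.8 and 75.0 CPM, but not in KO, at 91.6, 60.7 and 59.3 CPM. Short genes in general were higher in the replicate 1 libraries. Among all tested genes, the median excess of replicate 1 was 0.82 in WT and 0.54 in KO for exonic lengths under 1 kb, and -0.23 and -0.21 for lengths over 4 kb. Nuclear members have a median exonic length of 1569 bases, against 4306 for all genes with a length. They exceeded all genes within each length class: over 4 kb, the 10 members had medians of 0.83 in WT and 0.75 in KO. Exonic length here joins all annotated exons of a gene and can exceed the length of its main message. The classes therefore cannot show whether the members' excess goes beyond message length. The cause of the replicate 1 difference was not tested.

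**Figure D4:**
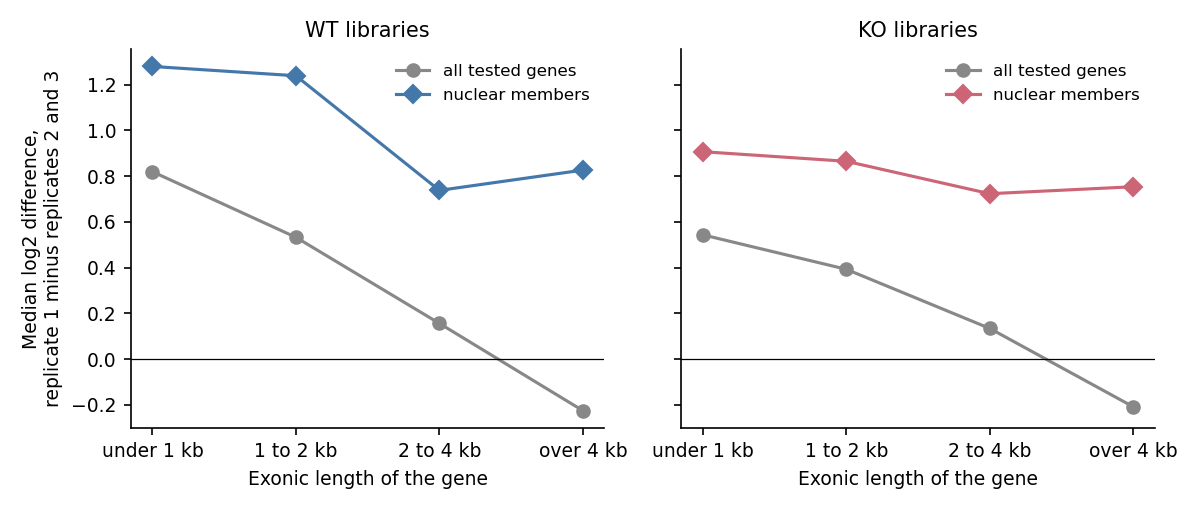
Median log2 difference between the replicate 1 library and the mean of replicates 2 and 3, for WT (left) and KO (right), over all tested genes and over nuclear members in 4 classes of exonic length (all annotated exons of a gene joined). All genes fall from 0.82 to -0.23 in WT with rising length, and the members lie above them in each class.

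Of the tissue isoforms of complex IV, Cox4i2 and Ndufa4l2 departed from this form. Cox4i2 (chr2:152754173-152765037, + strand) is an isoform of the regulatory subunit Cox4i1 that is known from lung and vascular mural cells and takes part in oxygen sensing. It was read at 9.70, 19.1 and 21.0 CPM in WT and 21.0, 25.6 and 29.6 CPM in KO, lowest in replicate 1 of each genotype. The lowest KO library and the highest WT library were nearly equal, at 21.04 and 20.98 CPM. Its log2 fold change was 0.61 ± 0.32 (SE), with an edgeR adjusted p of 0.513. Its partner Cox4i1 was read at 426, 172 and 166 CPM in WT and 273, 144 and 138 CPM in KO, a log2 fold change of -0.46 ± 0.47. Cox4i2 thus made up 2.23%, 10.01% and 11.2% of the counts of the pair in WT and 7.16%, 15.1% and 17.7% in KO, where KO replicate 1 lay below WT replicates 2 and 3.

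Ndufa4l2, a paralogue of Ndufa4 that is known to be induced by hypoxia and found in mural cells, was low in the same libraries, at 6.79 CPM in WT replicate 1 and 9.13 in KO replicate 1 against 17.3 to 21.6 CPM in the other 4. KO against WT gave -0.08 ± 0.50 on the log2 scale. Of 5 mural cell genes, picked after these values were seen, Pdgfrb, Notch3 and Kcnk3 were lowest in the replicate 1 library of each genotype. Pdgfrb was at 59.2 and 35.9 CPM in the replicate 1 libraries of WT and KO and at 258 to 374 CPM in the others, Notch3 at 26.2 and 18.4 CPM against 192 to 213, and Kcnk3 at 6.51 and 7.67 CPM against 23.8 to 39.4. The other two did not follow throughout. Rgs5 was at 22.2, 48.1 and 43.2 CPM in WT and 12.3, 32.5 and 10.3 CPM in KO, and Higd1b at 12.4, 12.2 and 11.53 CPM in WT and 8.97, 10.5 and 12.4 CPM in KO. Their part in the isoform levels was not tested.

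Cox6b2, an isoform of Cox6b1 best known from testis, was read at 6.54, 3.90 and 3.12 CPM in WT and 10.7, 6.16 and 8.17 CPM in KO. Its log2 fold change was the highest of the nuclear members, 0.88 ± 0.38 (SE), with adjusted p-values of 0.438 by edgeR and 0.293 by DESeq2, and 1.04 without both replicate 1 libraries. It made up 6.36%, 9.11% and 7.10% of the counts of the Cox6b pair in WT and 12.5%, 14.6% and 16.02% in KO, without overlap. Among the Atp5g genes, which encode the same mature c subunit of ATP synthase with different import sequences, Atp5g1 made up 13.9%, 15.4% and 17.1% in WT and 18.7%, 18.4% and 18.9% in KO. Atp5g3 made up 58.0%, 58.4% and 55.6% in WT and 55.4%, 52.6% and 54.8% in KO. Both pairs of groups were apart, that of Atp5g3 narrowly, and Atp5g2 overlapped. An exact 2-sided permutation test gave p = 0.1 for Cox6b2, Atp5g1 and Atp5g3, the smallest that 3 against 3 libraries allow, among 9 isoform shares compared. The Atp5g coding sequences are alike, and how reads shared between them were counted is not given in the sources used here.

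Cox6a2, the heart and muscle isoform of Cox6a1, was read at 11.7 CPM in WT replicate 1, 0.799 and 0.759 CPM in the other WT libraries and 3.82, 2.05 and 3.48 CPM in KO. The 13 cardiac muscle markers summed to 464, 81.1 and 86.4 CPM in WT and 148, 179 and 356 CPM in KO, all with counts. They were highest in the library where Cox6a2 was highest and lowest in the pair where it was lowest. Within KO the orders differed, as replicate 1 had the highest Cox6a2 and the lowest marker sum. The part of these markers in the level of Cox6a2 was not tested. The fitted log2 fold change was -0.51 ± 1.08 and turned to 1.83 without both replicate 1 libraries. Cox7a1, another muscle and brown fat isoform, stayed under 1 CPM in all libraries. Cox8b was at most 1.20 CPM, Cox7b2 had a count in KO replicate 1 only, and Cox8c had none. The ubiquitous partners Cox6a1, Cox6b1, Cox7a2 and Cox8a gave log2 fold changes of -0.16 ± 0.43, -0.20 ± 0.45, -0.06 ± 0.59 and -0.20 ± 0.33, and Ndufa4 gave -0.09 ± 0.68. Cox7a2l, a supercomplex assembly factor, gave -0.34 ± 0.31.

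**Figure D5:**
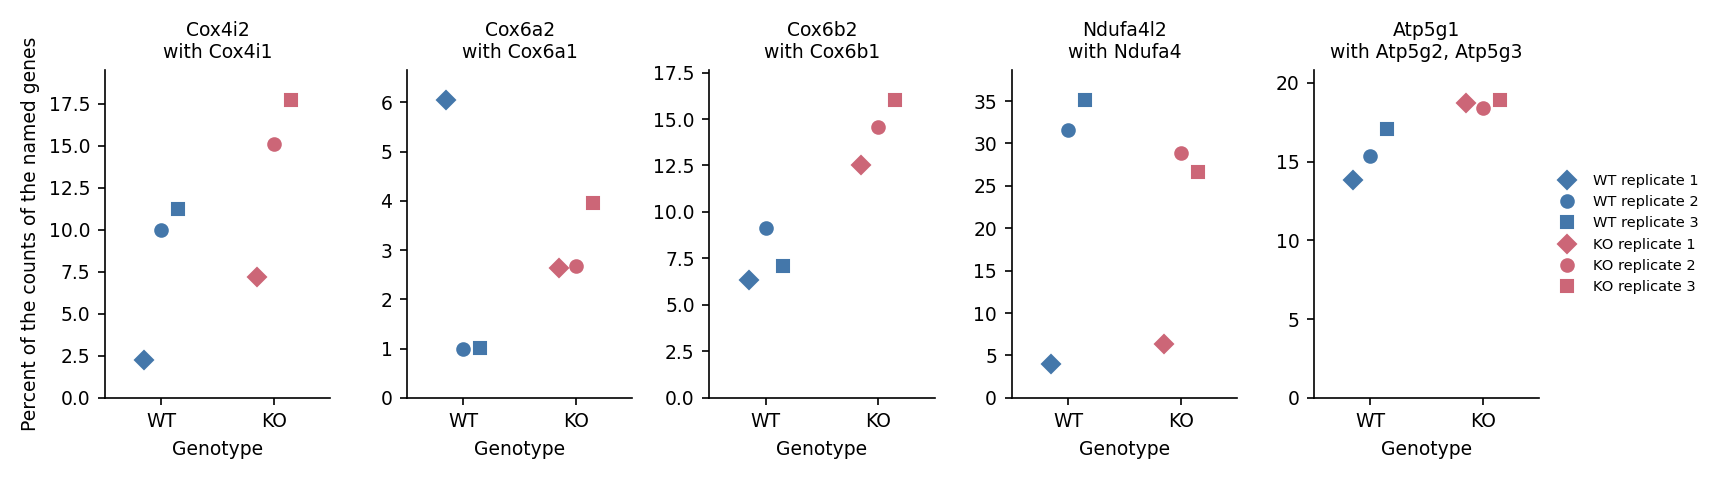
Percent of the counts of an isoform family taken by 1 isoform in each library, for 5 isoforms. Cox6b2 and Atp5g1 have all KO libraries above all WT libraries, Cox6a2 is highest in WT replicate 1, and Ndufa4l2 is lowest in both replicate 1 libraries.

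Genes around the respiratory chain were read from 6 further lists. edgeR called 0 genes in each list at an adjusted p under 0.05. At an unadjusted p under 0.05 it put 3 TCA cycle genes, 2 genes of mitochondrial DNA and RNA handling, 1 assembly factor, 1 mitochondrial ribosomal protein and 0 of the other 2 lists, against 11.8% of all genes. Of the pyruvate dehydrogenase and TCA cycle genes, which supply NADH and succinate, 20 of 24 had a log2 fold change below 0, with a median of -0.13. Without both replicate 1 libraries, 19 of 24 were below 0, with a median of -0.17. Pdk1, the kinase that inhibits pyruvate dehydrogenase and a known hypoxia target, was read at 57.1, 58.6 and 43.6 CPM in WT and 28.9, 25.7 and 23.2 CPM in KO. Every KO library was well below every WT library, replicate 1 libraries included. Its log2 fold change was -1.03 ± 0.19 (SE), and -1.05 without both replicate 1 libraries. The adjusted p was 0.203 by edgeR and 0.00362 by DESeq2, which called no other gene of these lists. Suclg2, a subunit of succinyl-CoA ligase, was also lower in all 3 KO libraries, at 36.5 to 38.2 CPM against 48.3 to 49.8 in WT, with a log2 fold change of -0.40 ± 0.14 (edgeR adjusted p = 0.370). Dlat, the E2 subunit of pyruvate dehydrogenase, gave -0.41 ± 0.17 (edgeR adjusted p = 0.414). In this list of 24 genes, 6 had every KO library below every WT library and 0 every KO library above. The shares of all tested genes were 11.3% and 9.81%.

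Mitochondrial ribosomal proteins, which serve the translation of the 13 mitochondrial messages, resembled the nuclear members in being high in the replicate 1 libraries. Of 78, 57 had a log2 fold change below 0 with a median of -0.14. Without both replicate 1 libraries, 56 were below 0 with a median of -0.16. For the nuclear members, 45 of 81 were then below 0 with a median of -0.07. In WT 77 and in KO 75 were higher in replicate 1 than in both replicates 2 and 3. Mrps26 gave the smallest p, with -0.70 ± 0.24 (edgeR adjusted p = 0.344), followed by Mrpl3 at -0.38 ± 0.18 and Mrps9 at -0.52 ± 0.25. Genes of mitochondrial DNA and RNA handling were mixed, 20 above 0 and 13 below, which became 14 above and 19 below without both replicate 1 libraries. Among them, Tbrg4, an RNA-binding protein of mitochondrial transcripts, gave -0.60 ± 0.18 (edgeR adjusted p = 0.302), and Mgme1, a mitochondrial DNA exonuclease, 0.69 ± 0.25 (edgeR adjusted p = 0.376). Tfb1m, which methylates mitochondrial ribosomal RNA, gave 0.64 ± 0.31.

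Assembly factors were split evenly, 26 above 0 and 28 below. Cox18, which inserts the mt-Co2 protein into the membrane, was read at 10.6, 9.13 and 10.1 CPM in WT and 7.45, 6.43 and 6.51 CPM in KO, a log2 fold change of -0.55 ± 0.22 (edgeR adjusted p = 0.413). Timmdc1, for complex I, and Uqcc1, for complex III, gave 0.59 ± 0.25 and 0.40 ± 0.19, and for each the lowest KO library was above the highest WT library. Of the 54 assembly factors tested, 4 had every KO library above every WT library and 6 every KO library below. The shares of all tested genes were 9.81% and 11.3%. Electron carriers and subunits outside the symbol rule had 10 above 0 and 12 below (14 above and 8 below without both replicate 1 libraries), with Pdss1 at -0.59 ± 0.25, Coq2 at 0.39 ± 0.20 and Coq8a at -0.47 ± 0.36, all 3 of the ubiquinone pathway. Of 20 regulators of mitochondrial biogenesis, 12 were above 0 and 8 below. The 3 of smallest p were the transcription factors Creb1, at 0.56 ± 0.24, Nfe2l2, at 0.66 ± 0.30, and Myc, at -0.82 ± 0.53, with edgeR adjusted p-values of 0.433, 0.461 and 0.598.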

How the data were processed

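The authors deposited 1 table of raw read counts and 1 of FPKM values, which are scaled to gene length and depth. The submitters' processing notes list HISAT2 2.0.4, StringTie 1.3.4d and the build GRCm38, with no roles. Per the labels' protocols, 1 µg of TRIzol-extracted RNA entered an NEBNext Ultra library. Strand and multi-mapping settings: not given in the sources used here. Coordinates and lengths are from GENCODE M21 (GRCm38). The FPKM columns of KO carry no replicate number that matches the labels and were used by group. Each library is a separate mouse per the design text, and p-values measure the spread between them.

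edgeR 4.0.16 (R 4.3.3) was fitted to all genes left by filterByExpr, with TMM factors, a robust quasi-likelihood fit and genotype as the only term. Tests were 2-sided, with Benjamini-Hochberg adjustment over all genes. SE is the size of the log2 fold change divided by the root of the F statistic. DESeq2 1.42.0, limma-voom (limma 3.58.1), limma on log2(FPKM + 1) and log2(FPKM + 0.1), other scalings and filters, a replicate block and left-out libraries were alternatives. Scripts were tested on simulated data. The members, lists and alternatives were chosen with earlier results of these data known. Named genes were the 13 mitochondrial genes, the 2 of highest CPM and the 2 of smallest p per complex, the isoform families, and up to 3 of smallest p per further list; Sdhb, Sdhc, Uqcr11 and Ndufs1 were added after their values were seen. A member that this rule named is not reported here.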

Additional observations from a re-analysis of the deposited data

How the results depend on the processing

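No member was called under any alternative run. Over all genes the count called was 0 in the edgeR fit, 678 by DESeq2, 0 to 3 with 1 library left out (1 without KO replicate 1, 3 without KO replicate 2) and 46 without both replicate 1 libraries. The labels give no pairing of the mice by replicate number. Deviations of same-numbered libraries correlated at 0.351, 0.350 and -0.0988, and 3 of 6 libraries correlated best with their own number. The replicate 1 libraries of WT and KO each correlated best with the other, and whether they share a factor was not tested. With the replicate block, edgeR called 0 members and 0 of all genes, with 19 of 94 members at an unadjusted p under 0.05, against 20.4% of all genes. At this depth Cox7b2, Cox8b and Cox8c had too few counts to be tested. No mitochondrial ribosomal or transfer RNA rows existed to leave out.

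Among the 58 named genes, log2 fold changes that changed sign, of which none was called, were these. With 1 library left out, their ranges were -0.37 to 0.21 for Atp5g1, -0.68 to 0.0054 for Atp5g2, -1.30 to 0.29 for Atp5k, -0.85 to 0.13 for Cox4i1, -0.49 to 0.38 for Cox6a1, -1.01 to 2.00 for Cox6a2, -0.57 to 0.36 for Cox6b1, -0.72 to 0.67 for Cox7a2, -0.41 to 0.22 for Cox8a, -0.76 to 0.86 for Ndufa4 and -0.46 to 0.18 for Ndufa4l2. They were -0.76 to 0.14 for Ndufv2, -0.47 to 0.069 for Sdhd, -0.36 to 0.099 for Uqcrc2, -0.40 to 0.63 for mt-Atp6, -0.37 to 0.61 for mt-Atp8, -0.0052 to 0.75 for mt-Co1, -0.30 to 0.48 for mt-Co2, -0.33 to 0.88 for mt-Co3, -0.55 to 0.72 for mt-Nd1 and -0.66 to 1.34 for mt-Nd3. Over all 94 tested members, 54 nuclear ones changed sign without WT replicate 1, and 10 nuclear and 7 mitochondrial ones without KO replicate 1. Without both replicate 1 libraries the values were -0.048 for mt-Nd1, -0.075 for mt-Atp6, -0.18 for mt-Atp8, 0.20 for Atp5k, 0.066 for Cox6a1, 1.83 for Cox6a2, 0.016 for Cox7a2, 0.087 for Cox8a, 0.21 for Ndufa4 and 0.054 for Coq8a. limma-voom gave 0.64 for Cox6a2, 0.035 for Ndufa4 and 0.015 for Ndufa4l2, and the replicate block 0.68, 0.033 and 0.011 for the same genes. On log2(FPKM + 1), with and without the filter, Cox6a2 was 0.36, Cox7a2 0.031, Ndufa4 0.095, Ndufa4l2 0.064 and Atp5g1 0.14. On log2(FPKM + 0.1) they were 0.66, 0.032, 0.096, 0.078 and 0.15. The cause was not tested.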
